A study of Mus musculus with 11 samples.

Results

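Integrins, selectins and their ligands were examined in gonadal white adipose tissue of mice fed a high fat diet as 1 family of 34 genes. The members were chosen by symbol alone from the 12787 genes of the deposited table: every listed gene whose symbol starts with Itga or Itgb, the Icam genes, the selectins, and Vcam1, Selplg, F11r, Jam2 and Jam3, without Itgax. Among them 5 genes (Itgal, Itgam, Itgb2, Itga4 and Itgb7) encode subunits typical of white blood cells and are called the leukocyte subunits below, and 29 are the other members. The rule itself uses no measured value, but it was set with earlier results of these data known. The genes Madcam1 and Sele, which the same rule names, were not analysed here.

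RNA-seq libraries came from 11 male C57Bl6/J mice, 1 library per mouse, that ate a high fat diet (HFD, 60% fat) for 20 weeks from the age of 6 weeks. The 5 HFD control mice received vehicle. The 6 IMC-treated mice received the same diet with 0.06% w/w iodomethylcholine (IMC), a small molecule that inactivates the gut bacterial enzyme making trimethylamine from choline. No lean group entered the comparison, so each difference below is between mice on the same high fat diet with and without the drug. The paper reports that IMC blunted diet-induced obesity and lowered fat mass. A difference that goes with the drug and one that goes with lower adiposity therefore cannot be told apart here. Each library is a whole piece of fat tissue, in which fewer cells of a type and less RNA per cell cannot be told apart. Reads counted on the listed genes numbered 22320022 to 25155366 per mouse.

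Integrins are cell surface receptors made of an alpha and a beta chain, and the combination sets what the receptor binds. Leukocytes use selectins and the selectin ligand Selplg to roll along a vessel wall, then integrins built on Itgb2 or Itga4 to hold on to Icam and Vcam proteins of the endothelium and to crawl through it. Other integrins fix resident cells, among them adipocytes, endothelium and smooth muscle, to laminin, collagen and fibronectin. In obesity, macrophages accumulate in fat, and many of them carry Itgam, Itgax and Itgb2 on their surface.

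Levels are given as log2 CPM, the base-2 logarithm of a gene's reads scaled to a common library size (CPM), and each difference is a log2 fold change (the mean of the IMC-treated mice minus that of the HFD controls) with its standard error (SE) from limma. A gene was said to rise or fall when its p, adjusted by the Benjamini-Hochberg method over all 12787 genes, was under 0.05. By this test 11 of the 34 members fell (32.4%), 5 rose (14.7%) and 18 did not pass. Of all genes tested, 21% fell and 20% rose. The members' median log2 fold change was -0.14, against -0.03 for all genes, and 24 of the 34 were below 0. Of all 34 members, the 2 groups of mice did not overlap at all for 4 that fell and for 4 that rose. Of all genes, the groups did not overlap for 10.5% (lower in the treated mice) and 12.5% (higher). The split of the members was uneven: of the 5 leukocyte subunits 4 fell and 0 rose, while of the 29 other members 7 fell and 5 rose. With so few genes in the first set this is given as a count only.

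**Figure D1:**
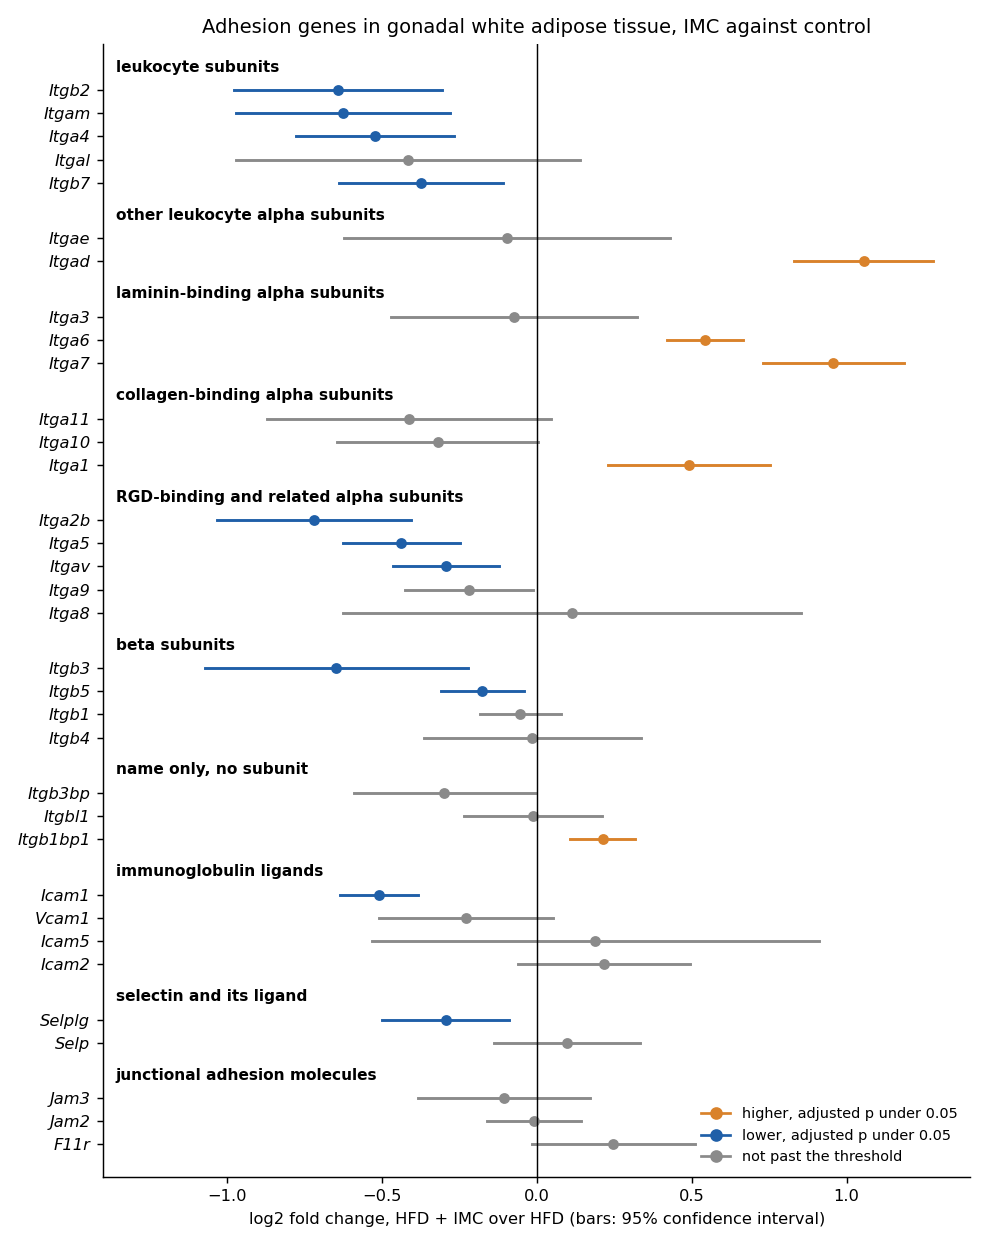
Log2 fold change (IMC-treated over HFD control, horizontal axis) of each of the 34 members with its 95% confidence interval, grouped by role. Orange genes rose, blue genes fell and grey genes did not pass the adjusted p of 0.05. The 4 leukocyte subunits in blue lie between -0.64 and -0.37, and Itgad (1.06) and Itga7 (0.96) lie farthest to the right.

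The leukocyte subunits were led by the beta chain Itgb2 and its partner Itgam. Itgb2 (chromosome 10, 77530329 to 77565708, build GRCm38.p6 here and below) encodes the chain shared by all integrins of the Itgal, Itgam, Itgax and Itgad type. Itgb2 stood at 10.02, 9.63, 9.58, 9.34 and 9.51 log2 CPM in the 5 HFD mice and ran from 8.54 over a median of 8.98 to 9.45 in the IMC-treated mice. Only HFD mouse 4 lay under the highest treated mouse, so the groups overlapped at that edge. Itgb2 fell by 0.64 on the log2 scale (SE 0.16, adjusted p = 0.00558), to 0.641 times the control level. Itgam, the alpha chain of the complement receptor of macrophages and neutrophils, stood at 8.89, 8.71, 8.81, 8.62 and 8.46 log2 CPM in the HFD mice and from 7.53 over 8.13 to 8.53 in the treated mice. Here HFD mouse 5 lay below the highest treated mouse, and treated mice 1, 2 and 6 were lowest for both genes. Itgam fell by 0.63 on the log2 scale (SE 0.16, adjusted p = 0.00751), to 0.648 times the control level. Both calls remained with any 1 mouse left out.

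Itga4 pairs with Itgb1 to bind Vcam1 and fibronectin, and with Itgb7 to bind the gut addressin Madcam1. It stood at 6.60, 6.41, 6.43, 6.72 and 6.19 log2 CPM in the HFD mice and from 5.61 over 6.03 to 6.17 in the treated mice. Every treated mouse lay below every control, the nearest values being 6.17 and 6.19. Itga4 fell by 0.52 on the log2 scale (SE 0.12, adjusted p = 0.00364). Its gene overlaps Cerkl in the annotation. Itgb7 stood at 4.46, 4.91, 4.51, 5.04 and 4.34 log2 CPM in the HFD mice and from 4.10 over 4.26 to 4.52 in the treated mice. HFD mice 2 and 4 were high and the other 3 controls lay within the treated range. Itgb7 fell by 0.37 on the log2 scale (SE 0.12, adjusted p = 0.0269). The call was lost without HFD mouse 2 (log2 fold change -0.31, adjusted p = 0.0690), HFD mouse 4 (-0.28, 0.0691), IMC mouse 1 (-0.34, 0.0581) or IMC mouse 2 (-0.36, 0.0518).

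Itgal, the alpha chain with which T cells and other lymphocytes bind Icam1, was the leukocyte subunit that did not pass. It stood at 4.04, 4.45, 4.0, 5.29 and 3.71 log2 CPM in the HFD mice and from 3.30 over 3.91 to 4.42 in the treated mice. HFD mouse 4 was far above every other mouse, HFD mouse 2 lay at the upper edge of the treated range and the other controls within it. The log2 fold change was -0.42 (95% interval -0.97 to 0.14, adjusted p = 0.217), and it was -0.17 without HFD mouse 4.

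**Figure D2:**
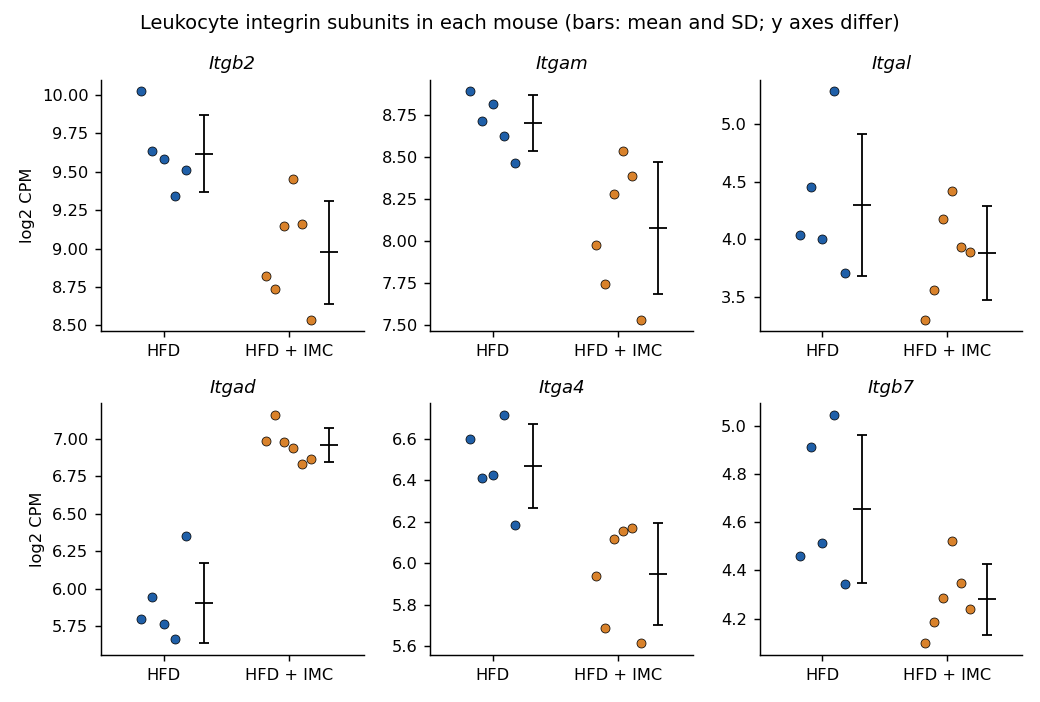
Log2 CPM of the 5 leukocyte subunits and of Itgad in each mouse (dots, blue for HFD, orange for HFD with IMC), with the group mean and SD beside them; each panel has its own vertical scale. The treated mice lie below every control for Itga4 and above every control for Itgad, and the groups overlap for Itgb2, Itgam, Itgb7 and Itgal, of which Itgal did not pass.

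Most markers of macrophages moved the same way. Of 17 macrophage marker genes 12 fell and 0 rose, with a median log2 fold change of -0.58, and their summed level ran from 14742 to 18895 CPM in the HFD mice and from 8104 to 12036 CPM in the treated mice. The sums were lowest in IMC mice 6, 2 and 1, the mice lowest for Itgam and Itgb2, and highest in HFD mouse 1, the mouse highest for both. The macrophage genes Mrc1 (-0.24), Mertk (-0.25) and Timd4 (-0.29) did not pass. Cd163 (0.27) and Lyve1 (0.53, adjusted p = 0.0760) went the other way, higher in the treated mice, and did not pass either. All 7 mast cell markers fell, from a summed 507 to 1157 CPM in the controls to 161 to 326 CPM. The only T cell marker listed, Cd2, stood at 2.75 log2 CPM in the controls and 2.10 in the treated mice (adjusted p = 0.0612), the 3 NK cell and 2 neutrophil markers listed did not pass, and the B cell list was not analysed here. The part of these cell types in the fall of the leukocyte subunits was not tested.

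The promoters of the 3 leukocyte subunits with a listed window, Itgam, Itga4 and Itgb7, are shown with that of Itga2b, the platelet chain that fell farthest, because all 4 fell in the treated group. Each runs 5′ to 3′ on the gene's own strand, from 250 bases before a start site to 50 after it, and is taken from RefSeq on GRCm38.p6. Capitals mark GAGGAA, the core that the blood cell factor PU.1 and other ETS proteins bind, on either strand (TTCCTC when read on the other), and in Itga4 the RUNX core TGTGGT on the other strand (ACCACA). Itgam lies on the plus strand at chr7:128062390-128062689, Itga4 on the plus strand at chr2:79255176-79255475, Itgb7 on the minus strand at chr15:102231886-102232185, at a start inside the annotated gene, and Itga2b on the minus strand at chr11:102469834-102470133.
Itgam: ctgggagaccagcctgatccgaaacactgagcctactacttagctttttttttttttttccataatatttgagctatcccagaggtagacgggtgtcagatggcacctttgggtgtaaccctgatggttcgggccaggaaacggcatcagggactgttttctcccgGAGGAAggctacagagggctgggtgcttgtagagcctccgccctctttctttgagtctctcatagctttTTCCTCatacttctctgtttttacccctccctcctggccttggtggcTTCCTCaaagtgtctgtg
Itga4: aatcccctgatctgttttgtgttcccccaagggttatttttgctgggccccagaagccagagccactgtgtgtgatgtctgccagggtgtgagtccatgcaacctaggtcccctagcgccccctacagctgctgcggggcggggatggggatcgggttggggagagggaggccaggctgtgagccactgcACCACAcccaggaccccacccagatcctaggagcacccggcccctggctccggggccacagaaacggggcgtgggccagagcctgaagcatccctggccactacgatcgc
Itgb7: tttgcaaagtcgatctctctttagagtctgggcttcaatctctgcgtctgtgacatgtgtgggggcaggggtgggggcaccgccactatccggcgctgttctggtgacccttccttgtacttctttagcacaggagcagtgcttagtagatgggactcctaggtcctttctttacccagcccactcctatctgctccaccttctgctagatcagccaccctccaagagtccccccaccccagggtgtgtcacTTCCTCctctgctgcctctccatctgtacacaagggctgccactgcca
Itga2b: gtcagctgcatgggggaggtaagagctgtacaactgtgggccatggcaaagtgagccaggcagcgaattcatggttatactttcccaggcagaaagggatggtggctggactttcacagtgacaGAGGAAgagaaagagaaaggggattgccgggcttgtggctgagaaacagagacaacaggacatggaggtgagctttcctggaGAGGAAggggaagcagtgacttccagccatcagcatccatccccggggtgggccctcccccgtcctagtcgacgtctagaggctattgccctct

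Promoter windows were listed for 21 of the 34 members (22 windows, Itga3 having 2). GAGGAA was present in 9 of the 22 windows, and in 28.3% of all 32851 windows of the same length. It stood in 5 of 8 windows of members that fell (Itga2b, Itga5, Itgam, Itgav and Itgb7), in 0 of 2 of members that rose and in 4 of 12 of the rest. TGTGGT was present for Itga3 and Itga4 (2 of 22, and 16.8% of all windows). For NF-kappaB only the strings GGGACTTTC and GGGAATTTC were searched. They were in no member's window, and in 0.353% and 0.259% of all windows. Other forms of the NF-kappaB site were not tested, so no statement is made on whether the Icam1 window holds one. In a window of Itga3 the matches of GAGGAA and TGTGGT overlap, and a match here is a run of letters only. No window was listed for Itgb2, Itgal, Itgad, Itga6, Itga7, Itgb3, Selplg or Vcam1.

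Itgad rose, while its neighbours Itgam and Itgax fell and Itgal did not pass. It encodes CD11d, an alpha chain that pairs with Itgb2 and is carried by subsets of macrophages. Itgad stood at 5.80, 5.94, 5.76, 5.66 and 6.35 log2 CPM in the HFD mice and from 6.83 over 6.96 to 7.16 in the treated mice. Every treated mouse lay above every control, and HFD mouse 5 was the highest control. It rose by 1.06 on the log2 scale (SE 0.10, adjusted p = 3.49e-05), a 2.08-fold higher level, and ranked 48 of 12787 genes by p. Without any 1 mouse the rise was between 1.0 and 1.17.

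The 3 alpha genes Itgam (128062640 to 128118491), Itgax (128129526 to 128150657) and Itgad (128173933 to 128205504) lie in this order on the plus strand of chromosome 7, and Itgal lies on the same strand at 127296139 to 127335137. Itgax, which is no member, fell by 0.68 on the log2 scale (SE 0.13, adjusted p = 0.00105), so within this cluster Itgam and Itgax fell and Itgad rose. The 3′ end of Itgad is overlapped by Cox6a2, a muscle gene on the minus strand at 128205435 to 128206366, which stood at 1.38 log2 CPM in the controls and 1.13 in the treated mice (adjusted p = 0.313). The annotated genes 4931431B13Rik and Gm39091 also overlap Itgad, and their levels were not looked at here. Whether similar stretches of the 3 alpha genes shared reads was not tested. In each mouse, Itgad minus Itgb2 was -3.72 ± 0.38 log2 (SD, n = 5) in the controls and -2.02 ± 0.38 (SD, n = 6) in the treated mice, with no overlap. This ratio was singled out after the values were seen and carries no test. Itgae, the chain by which resident lymphocytes bind E-cadherin, was near the floor at 0.66 ± 0.58 (SD, n = 5) and 0.56 ± 0.26 log2 CPM (SD, n = 6), with 23 to 71 reads a mouse, and did not pass.

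Of the 3 alpha chains that bind laminin, the main protein of basement membranes, 2 rose, beside 20% of all genes. Itga6 pairs with Itgb1 or Itgb4, and stood at 7.04, 7.36, 7.25, 7.25 and 7.35 log2 CPM in the HFD mice and from 7.70 over 7.81 to 7.83 in the treated mice. Treated mice were tightly grouped and all above the controls, of which HFD mouse 1 was lowest. Itga6 rose by 0.54 on the log2 scale (SE 0.06, adjusted p = 3.5e-05). Itga7, the laminin receptor chain best known from muscle, stood at 7.56, 8.0, 7.80, 7.87 and 8.20 log2 CPM in the HFD mice and from 8.64 over 8.83 to 9.10 in the treated mice. Again no treated mouse lay within the control range. Itga7 rose by 0.96 on the log2 scale (SE 0.11, adjusted p = 4.14e-05), a 1.94-fold higher level. Its gene overlaps Mettl7b and 2 further annotated genes. Itga3, which also binds laminin, had a log2 fold change of -0.07 (95% interval -0.47 to 0.32) and did not pass.

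Collagen receptors were divided. Itga1, which binds collagen IV, stood at 4.41, 4.90, 4.43, 4.46 and 4.83 log2 CPM in the HFD mice and from 4.76 over 5.13 to 5.30 in the treated mice. HFD mice 2 and 5 lay above the lowest treated mouse, and the other controls lay below all treated mice. Itga1 rose by 0.49 on the log2 scale (SE 0.12, adjusted p = 0.00618), and its gene overlaps Pelo. Itga10 and Itga11, receptors of fibrillar and cartilage-type collagens found on mesenchymal cells, had log2 fold changes of -0.32 (adjusted p = 0.106) and -0.41 (0.139). Itga10 had only 57 to 97 reads a mouse. Itga10 passed without HFD mouse 4 (-0.43, adjusted p = 0.0322) or IMC mouse 3 (-0.40, 0.0419), and Itga11 without HFD mouse 5 (-0.57, 0.0381).

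Beside these, 8 of 9 adipocyte markers rose (summed 19356 to 23961 CPM in the controls, 29535 to 34184 CPM in the treated mice), as did 3 of 7 pericyte and smooth muscle markers and 1 of 8 endothelial markers, the gene Cdh5. Of 4 listed skeletal muscle markers 2 rose, from a summed 20.4 to 26.1 CPM to 38.0 to 65.8 CPM. The part of these cells in the rise of Itga1, Itga6 and Itga7 was not tested.

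Of the 5 alpha chains of receptors that bind fibronectin, vitronectin, fibrinogen and related proteins, most through their RGD motif, 3 fell and 0 rose. With so few genes this is a count only, beside 21% falling and 20% rising among all genes. Itga5, the main fibronectin receptor chain, stood at 7.83, 7.59, 7.69, 7.41 and 7.64 log2 CPM in the HFD mice and from 6.97 over 7.23 to 7.40 in the treated mice. The groups did not overlap, but HFD mouse 4 and IMC mouse 1 were nearly level. Itga5 fell by 0.44 on the log2 scale (SE 0.09, adjusted p = 0.00167). Itgav, the vitronectin receptor chain that pairs with Itgb1, Itgb3 and Itgb5, stood at 7.25, 7.14, 7.33, 7.19 and 6.87 log2 CPM in the HFD mice and from 6.64 over 6.92 to 6.95 in the treated mice. Only HFD mouse 5 lay in the treated range. Itgav fell by 0.29 on the log2 scale (SE 0.08, adjusted p = 0.0103). Itga2b, which with Itgb3 forms the fibrinogen receptor of platelets, stood at 3.58, 2.69, 2.85, 2.98 and 3.20 log2 CPM in the HFD mice and from 2.13 over 2.32 to 2.63 in the treated mice. All treated mice lay below all controls, with HFD mouse 1 highest. Itga2b fell by 0.72 on the log2 scale (SE 0.15, adjusted p = 0.00184), to 0.607 times the control level, on 99 to 265 reads a mouse.

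Itga9, a receptor of tenascin and Vcam1, had a log2 fold change of -0.22 and did not pass (adjusted p = 0.0848), but HFD mouse 5 was low at 4.86 log2 CPM, and without it the gene passed at -0.31 (adjusted p = 0.00524). Itga8 was the scarcest alpha chain, with 15 to 56 reads a mouse, and did not pass (0.11, 95% interval -0.63 to 0.85). Platelet markers were represented by 1 listed gene, Pf4, which also fell (6.65 against 6.27 log2 CPM, adjusted p = 0.0278). The part of platelets in the fall of Itga2b was not tested.

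Of the remaining beta chains, Itgb3 stood at 5.02, 5.02, 5.15, 4.45 and 4.25 log2 CPM in the HFD mice and from 3.56 over 4.33 to 4.42 in the treated mice. HFD mice 1, 2 and 3 were high, HFD mouse 4 lay just above the treated range and HFD mouse 5 within it. Itgb3 fell by 0.65 on the log2 scale (SE 0.20, adjusted p = 0.0187), and the call was lost without HFD mouse 3 (-0.55, adjusted p = 0.0539). Itgb5, which with Itgav binds vitronectin, stood at 8.47, 8.33, 8.44, 8.26 and 8.27 log2 CPM in the HFD mice and from 8.04 over 8.17 to 8.33 in the treated mice. HFD mice 4 and 5 lay within the treated range and HFD mouse 2 at its upper edge. Itgb5 fell by 0.18 on the log2 scale (SE 0.06, adjusted p = 0.0377), the smallest change among the members that passed. Its call was lost without HFD mouse 1, 2 or 3 or IMC mouse 1, 2, 4 or 6 (log2 fold changes of -0.18 to -0.15, adjusted p from 0.0529 to 0.0959).

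Itgb1, the partner of most matrix-binding alpha chains, stood at 9.57 ± 0.10 log2 CPM (SD, n = 5) in the controls and 9.52 ± 0.08 (SD, n = 6) in the treated mice. Its log2 fold change was -0.05, with a 95% interval of -0.18 to 0.08 (adjusted p = 0.513). Itgb4, the beta chain of epithelial anchoring junctions, was at -0.01 (95% interval -0.36 to 0.34). Thus the laminin and collagen alpha chains Itga6, Itga7 and Itga1 rose, and Itga5 and Itga4 fell, while their common partner Itgb1 did not pass.

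**Figure D3:**
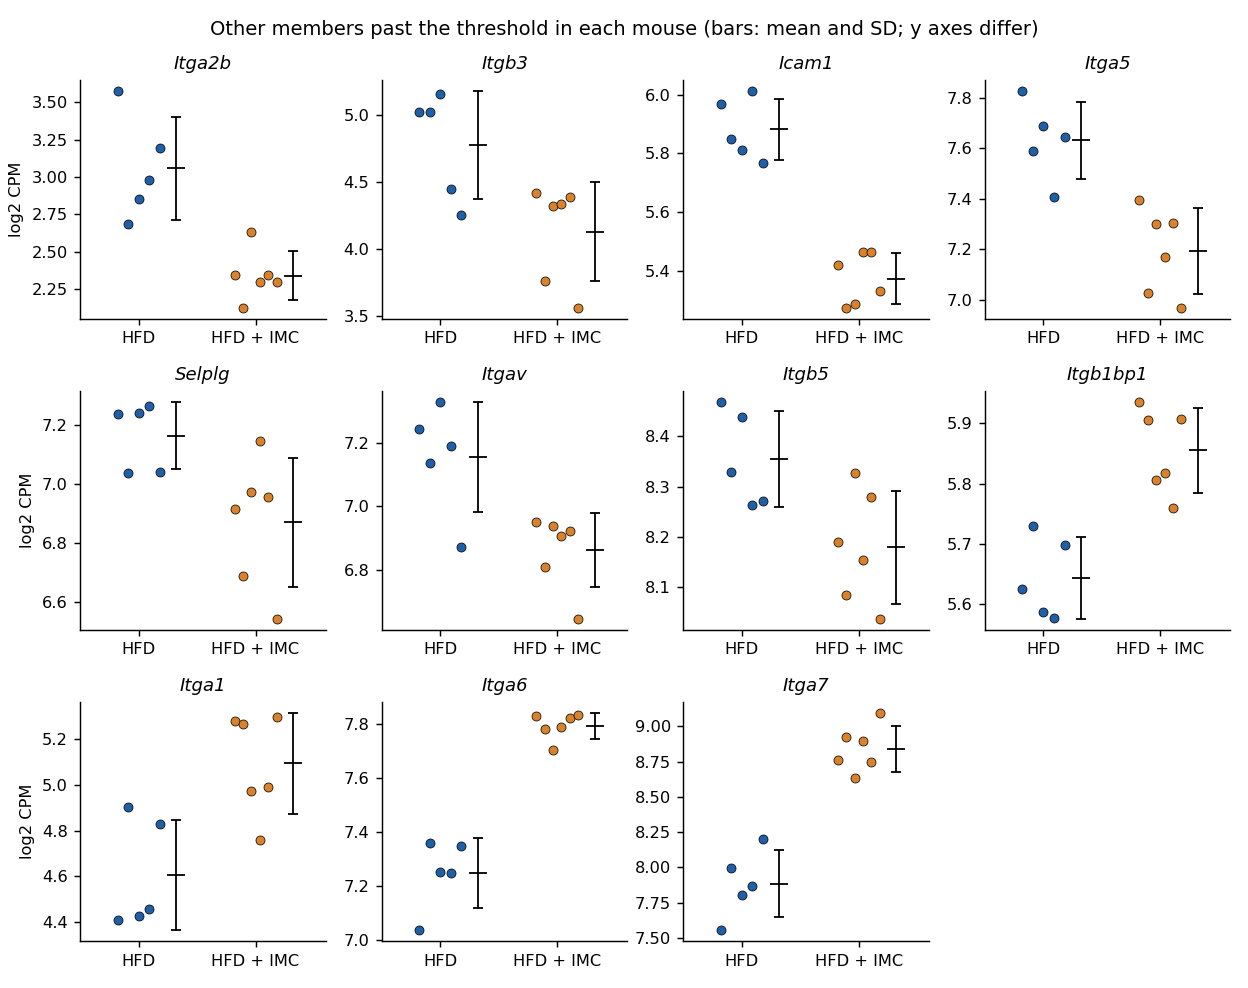
Log2 CPM of the 11 other members past the threshold, apart from Itgad, in each mouse (dots, blue for HFD, orange for HFD with IMC), with the group mean and SD; panels are ordered by fold change and each has its own vertical scale. The groups are apart for Itga2b, Icam1, Itga5, Itgb1bp1, Itga6 and Itga7 and overlap for Itgb3, Selplg, Itgav, Itgb5 and Itga1.

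The rule also took 3 genes that share only the name. Itgb1bp1 encodes a cytoplasmic protein that binds the tail of Itgb1 and holds the receptor back from its active form. It stood at 5.63, 5.73, 5.59, 5.58 and 5.70 log2 CPM in the HFD mice and from 5.76 over 5.86 to 5.94 in the treated mice. The treated mice were all above the controls by a narrow margin. Itgb1bp1 rose by 0.21 on the log2 scale (SE 0.05, adjusted p = 0.00375), and its gene overlaps Asap2 and Cpsf3. Itgb3bp, a centromere protein, had a log2 fold change of -0.30 (adjusted p = 0.0948) and passed only without IMC mouse 6 (-0.36, adjusted p = 0.0448). Itgbl1, a secreted protein resembling a beta chain, was at -0.01 and did not pass.

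Among the ligands on the vessel wall, Icam1 changed. Icam1 (chromosome 9, 21015940 to 21028814), the counter-receptor of Itgal and Itgam that inflammatory signals induce on endothelium and other cells, stood at 5.97, 5.85, 5.81, 6.01 and 5.77 log2 CPM in the HFD mice and from 5.27 over 5.38 to 5.47 in the treated mice. The groups were well apart. Icam1 fell by 0.51 on the log2 scale (SE 0.06, adjusted p = 5.3e-05), to 0.703 times the control level, and ranked 189 of 12787 genes by p. Vcam1, the ligand of Itga4 with Itgb1, was at 5.92 ± 0.27 (SD, n = 5) and 5.69 ± 0.23 log2 CPM (SD, n = 6), and its log2 fold change of -0.23 did not pass (95% interval -0.51 to 0.05, adjusted p = 0.181). Icam2, a constitutive endothelial ligand, was at 0.22 (adjusted p = 0.198), and Icam5, a neuronal member with 8 to 37 reads a mouse, was at 0.19 (adjusted p = 0.683). The 95% interval of Icam5 was -0.53 to 0.91.

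Selplg, the ligand through which leukocytes roll on P-selectin, stood at 7.24, 7.04, 7.24, 7.27 and 7.04 log2 CPM in the HFD mice and from 6.54 over 6.94 to 7.15 in the treated mice. Its groups overlapped between the lower controls and IMC mouse 4. Selplg fell by 0.29 on the log2 scale (SE 0.09, adjusted p = 0.0250). The call was lost without HFD mouse 1 (-0.28, adjusted p = 0.0579), HFD mouse 3 (-0.27, 0.0599), HFD mouse 4 (-0.27, 0.0608) or IMC mouse 2 (-0.26, 0.0543). Selp, the P-selectin of endothelium and platelets, was at 3.54 ± 0.20 (SD, n = 5) and 3.64 ± 0.19 log2 CPM (SD, n = 6) and did not pass (log2 fold change 0.10, 95% interval -0.14 to 0.33). None of the 3 junctional adhesion molecules, which leukocytes meet between endothelial cells, passed, nor was any under an unadjusted p of 0.05: F11r was at 0.25 (adjusted p = 0.121), Jam2 at -0.01 and Jam3 at -0.10. F11r passed without IMC mouse 4 (0.32, adjusted p = 0.0389).

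Ratios between partners were formed in each mouse, which frees them from the scaling of the libraries, and the groups were set against each other by exact permutation (two-sided, all 462 divisions of the mice, p adjusted over 8 ratios). The smallest p this test can give is 0.00216. Itga4 over Itgb1 passed: it was -2.99, -3.18, -3.26, -2.85 and -3.23 log2 in the HFD mice and from -3.77 over -3.55 to -3.39 in the treated mice, a difference of -0.47 (exact p = 0.00216, adjusted p = 0.0173). No treated mouse reached the lowest control. The adjusted p was 0.0762 without HFD mouse 1 (-0.44) and 0.0952 without HFD mouse 4 (-0.41), and with any treated mouse left out it was 0.0635. With 5 against 5 mice this is the smallest adjusted p that a ratio can have when it alone reaches the smallest exact p.

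The other 7 ratios did not pass. Itgam over Itgb2 was -0.92 ± 0.18 (SD, n = 5) and -0.90 ± 0.09 (SD, n = 6), a difference of 0.02 (adjusted exact p = 0.844). Itgb5 over Itgb3, the beta chains of the vitronectin receptors, differed by 0.47 (exact p = 0.0476, adjusted p = 0.190). Vcam1 over Icam1 differed by 0.28 and Selp over Selplg by 0.39 (both adjusted exact p = 0.208). Itgal over Itgb2 (0.23), Itgam over Itgal (-0.21) and Itga4 over Itgb7 (-0.15) had adjusted exact p of 0.596, 0.596 and 0.468.

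**Figure D4:**
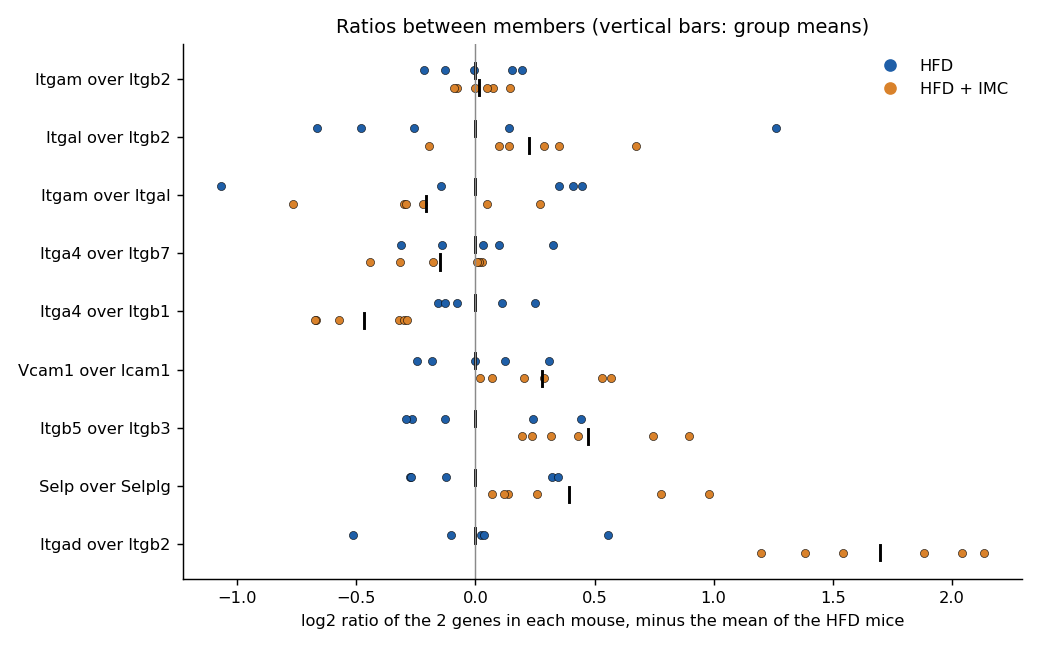
Log2 ratio of the genes named on the left in each mouse (dots, blue for HFD, orange for HFD with IMC), set to 0 at the mean of the HFD mice; vertical bars are group means. Treated mice are apart from the controls for Itga4 over Itgb1 (mean -0.47) and, in the ratio that carries no test, for Itgad over Itgb2 (mean 1.70).

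Levels can be set side by side between genes only per length, here as mean log2 CPM per kilobase of annotated exon over the 11 mice. On this scale Itgb2 was at 7.66 and Itgb1 at 7.51, above Itgb5 at 6.43, Itgam at 6.03, Itga7 at 5.39 and Itga5 at 5.09. Itgad stood at 4.30, above Itgal at 1.35 and below Itgam. The lowest were Itga8 at -2.57, Itgae at -1.59 and Icam5 at -1.58. In the controls Itgb2 (mean 8.01) lay above Itgb1 (7.54) in every mouse, and in the treated mice the ranges of the 2 genes overlapped (7.37 and 7.49). Of all members 28 had at least 100 reads in every mouse. A total of 16 members overlap another annotated gene. The library kit keeps the strand, and which strand setting was used in counting is not given in the sources used here.

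**Figure D5:**
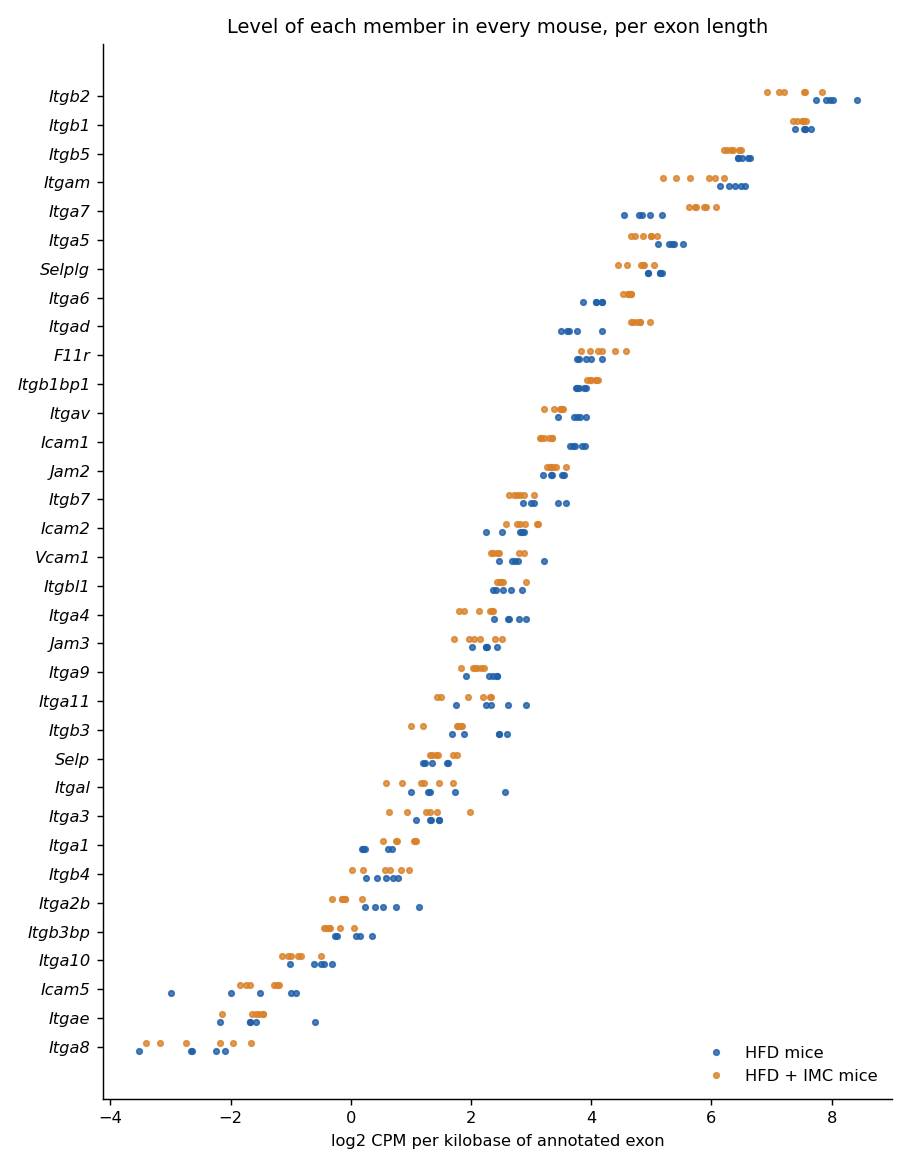
Log2 CPM per kilobase of annotated exon (horizontal axis) of each member in every mouse, blue for HFD and orange for HFD with IMC, ordered by the mean over all mice. Itgb2 (7.66) and Itgb1 (7.51) are highest and Itga8 (-2.57) lowest, and neighbours in the order mostly overlap.

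The wider adhesion machinery was read from 8 lists of 89 genes, of which 78 were in the table: 25 fell, 13 rose and 40 did not pass, with a median log2 fold change of -0.07. Of all genes tested, 21% fell and 20% rose, as above, and the shares of the lists are to be read against these. Of 10 activators and adaptors that switch integrins on inside the cell, 3 rose and 5 fell. Tln2, a talin of muscle and brain that links integrins to actin, rose by 1.01 on the log2 scale (adjusted p = 3.22e-05), and Fermt2, the widely expressed kindlin, rose by 0.53 (0.000324). Fermt3, the kindlin of blood cells, fell by 0.57 on the log2 scale (adjusted p = 0.000539), and Skap2, an adaptor of myeloid cells, fell by 0.43 (0.0010). Of 8 inhibitors and trafficking proteins 4 fell and 0 rose. They were Arf6 (-0.35, adjusted p = 0.00174), a small GTPase of receptor recycling, Dok1 (-0.41, 0.00196), which competes with talin for the beta tail, Rab11a (-0.22, 0.00512) of the recycling endosome, and the integrin inhibitor Sharpin (-0.17, 0.0376).

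Of 20 focal adhesion proteins, the plaque that ties matrix-bound integrins to actin, 6 rose and 4 fell, against 20% and 21% of all genes. The 4 with the smallest p all rose: Parva (0.52, adjusted p = 4.14e-05), Tns1 (0.76, 0.000102), Bcar1 (0.60, 0.000644) and Actn4 (0.23, 0.00172). Of 7 ligands and signalling partners of the Itgb2 integrins 6 fell and 0 rose. The adaptor Tyrobp (-0.75, adjusted p = 0.000103), the IgG receptor Fcgr3 (-0.69, 0.000293) and the urokinase receptor Plaur (-0.46, 0.00132) were among them, and each of these genes is also expressed by macrophages.

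Of 10 enzymes that add sugars or sulfate to selectin ligands 3 fell and 0 rose. They were B4galt1 (-0.23, adjusted p = 0.00278), Gcnt1 (-0.40, 0.00463) and the tyrosine sulfotransferase Tpst1 (-0.30, 0.0107). Chst4 had the largest difference in that list (-0.84) but did not pass (adjusted p = 0.0615). Of 7 selectin ligands and mucins Cd44, also a hyaluronan receptor, fell by 0.83 on the log2 scale (adjusted p = 0.000442) and Cd34 fell by 0.31 (0.0298), while Spn (-0.27) and Podxl (0.14) did not pass. Of 7 endothelial junction partners 3 rose and 0 fell, namely Cd99l2 (0.33, adjusted p = 0.000153), the tight junction scaffold Tjp1 (0.40, 0.000713) and the endothelial cadherin Cdh5 (0.41, 0.0051). Of 9 matrix and plasma ligands the basement membrane protein Nid1, a partner of laminin, rose by 0.39 (adjusted p = 0.00326) and Postn, a ligand of the Itgav integrins, fell by 0.68 on the log2 scale (0.00664), while Thbs1 (0.39, adjusted p = 0.139) and Vtn (-0.27, 0.159) did not pass.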

How the data were processed

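RNA was isolated by the authors from gonadal white adipose tissue of 5 HFD and 6 HFD + IMC mice, sequenced from directional libraries, trimmed with Trim Galore, checked with FastQC and aligned with STAR to mm10. The authors counted reads per gene, left out genes under 1 CPM in all samples, scaled the libraries by the upper quartile in edgeR and deposited log2 CPM, the unit used here. The table's further columns hold the authors' own fold changes, mean levels, likelihood ratios, p-values and FDR values, and none was used.

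The deposited log2 CPM of 12787 genes were fitted with limma 3.58.1 (lmFit, eBayes with trend, group as the only term) in R 4.3.3, with Benjamini-Hochberg adjustment over all genes and a threshold of 0.05. The study's own method, edgeR on counts, was not run, also not on the recovered reads described below. The deposited values are log2 CPM, and the main test was planned for that scale. A fold change on this scale understates the change of low genes, since about 0.25 reads had been added before the log (0.236 to 0.264 by mouse). Whole reads were recovered for 100% of values (within 0.01 reads) and served for depth, for total-count and median-of-ratios scaling, for an added constant of 2 reads and for limma voom. Other alternatives were limma without the trend, a filter at a mean log2 CPM of 1, and leaving out each mouse. Ratios were tested by exact permutation (scipy 1.17.1). The fit was tested on simulated data before use.

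The members, lists, ratios and motifs were chosen with earlier results of these data known. By rule, values in every HFD mouse, and the lowest, median and highest of the treated mice, were given for the leukocyte subunits and for other members under the threshold that were among the 12 smallest p or changed by at least 0.5 (log2), and in each pathway list the 4 genes with the smallest p were named, apart from a few genes not reported here. Gene positions and promoters came from RefSeq (GRCm38.p6), exon lengths from GENCODE. The libraries are labelled as separate mice. The labels give no batch, so none could be examined. Of the cell type lists, fibroblast and progenitor genes fell for 4 of 7 and mesothelial genes for 1 of 5, and the epididymis list was not analysed here.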

Additional observations from a re-analysis of the deposited data

Results flagged for a closer look

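In 84 groups of values (each member and each ratio in each group of mice), 3 had a mouse far from the rest by Dixon's test, and chance gives about 1 in 20. Itgae in the treated group was low in IMC mouse 3, at 0.057 log2 CPM against 0.55 to 0.74 in the other treated mice. Itga9 in the controls was low in HFD mouse 5, at 4.86 log2 CPM against 5.24 to 5.38. Itgbl1 in the treated group was high in IMC mouse 2, at 5.00 log2 CPM against 4.51 to 4.62. The cause was not tested.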

How the results depend on the processing

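Over all alternatives 8 to 13 members fell and 5 to 6 rose, and 22 to 26 genes of the pathway lists fell and 12 to 15 rose. Among all genes, 2113 to 3261 fell and 2178 to 2646 rose over the same alternatives. These were of 12787 genes tested, or of 12146 with the filter at a mean log2 CPM of 1. Total-count scaling gave the most that fell (3261, against 2202 that rose). The median log2 fold change of all genes lay between -0.06 and -0.02 under every scaling. Of the 16 members that passed, 12 kept the call with any mouse left out. Itgb7, Itgb3, Itgb5 and Selplg did not, and Itgb5 also lost it without the variance trend (adjusted p = 0.0513) and with median-of-ratios scaling (adjusted p = 0.0526). Leaving out single mice turned the sign of 7 members that had not passed, over ranges of -0.25 to 0.14 (Itgae), -0.22 to 0.049 (Itga3), -0.11 to 0.29 (Itga8), -0.098 to 0.089 (Itgb4), -0.085 to 0.059 (Itgbl1), -0.14 to 0.38 (Icam5) and -0.055 to 0.031 (Jam2), and of the ratio Itgam over Itgb2 (-0.037 to 0.065). The ratio Itga4 over Itgb1 ranged from -0.51 to -0.41 and lost its call in 8 of 11 such tests. In 6 of the 8, with 5 against 5 mice, the smallest p the test can give is larger than with all 11 mice. Itgae, Itga8, Itga10 and Icam5 rest on fewer than 100 reads in each mouse. No paired analysis was possible because the mouse numbers of the 2 groups name separate animals.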
